A study of Sus scrofa with 2 samples.

Results

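The miR-17-92 cluster and its paralogs were examined in the anterior pituitary of 2 pig breeds. Of the 355 miRNAs on the array, 12 were chosen by name, namely every porcine ID of miR-17, miR-18, miR-19, miR-20, miR-25, miR-92, miR-93, miR-106 or miR-363, with any letter or arm. None of them was miR-25 or miR-93, and miR-25, miR-93 and miR-106b, the third paralogous cluster of mammals, were not analysed here. RNA came from 20-day-old female piglets, 3 Bama minipigs (YB), a miniature breed from China, and 3 Landrace pigs (YC), a European breed of larger size. The pigs of each breed were combined into 1 pool, and each pool was hybridized to 1 custom array stained with Cy5. The values are signal intensities, 1 mean per miRNA and array, and ratios are Bama minipigs over Landrace pigs. With 1 pool per breed there was no replicate, so the spread between pigs is unknown and no difference between the breeds could be tested. In whole tissue, fewer cells of a type and less miRNA per cell cannot be told apart.

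The miR-17-92 cluster is a single primary transcript that is cut into several hairpins, each giving a mature miRNA from its 5′ or 3′ arm. Copies of this cluster arose by duplication, and their miRNAs fall into 4 classes that share a seed, bases 2 to 8, the stretch that pairs with target mRNAs. The transcript is known as a target of MYC and E2F factors and for promoting proliferation. The miR-17 class is known to repress the cell cycle inhibitor CDKN1A and E2F1, the miR-18 class the matrix protein CCN2, and miR-92a the integrin subunit ITGA5.

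The mature sequences, from the study's probe list, are shown for the 10 miRNAs of the 4 classes, because the classes and the near-identity of some members decide how the signals can be read. They run 5′ to 3′ with the seed in capitals.
ssc-miR-17-5p: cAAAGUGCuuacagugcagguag
ssc-miR-106a: aAAAGUGCuuacagugcagguagc
ssc-miR-20: uAAAGUGCuuauagugcaggua
ssc-miR-18a: uAAGGUGCaucuagugcagaua
ssc-miR-18b: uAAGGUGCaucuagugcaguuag
ssc-miR-19a: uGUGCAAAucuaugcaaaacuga
ssc-miR-19b: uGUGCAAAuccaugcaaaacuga
ssc-miR-92a: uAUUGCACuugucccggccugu
ssc-miR-92b-3p: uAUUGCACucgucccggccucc
ssc-miR-363: aAUUGCACgguauccaucuguaa

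The other 2 members, ssc-miR-17-3p and ssc-miR-92b-5p, come from the opposite arms of their hairpins and carry none of the 4 seeds. In the miR-17 class, with the seed AAAGUGC, ssc-miR-17-5p and ssc-miR-20 differ by C1U and C12U over 22 shared positions, counted from the 5′ end with the first-named base first. Between ssc-miR-106a and ssc-miR-17-5p only A1C differs over 23 positions. In the miR-18 class (AAGGUGC), ssc-miR-18a and ssc-miR-18b differ by A20U. In the miR-19 class (GUGCAAA), ssc-miR-19a and ssc-miR-19b differ by U11C alone. The miR-92 class (AUUGCAC) is the least alike, with 3 mismatches between ssc-miR-92a and ssc-miR-92b-3p but 12 between either of them and ssc-miR-363. Whether probes for members this alike also bound each other's RNA was not tested. Among all 355 sequences, only ssc-miR-32 carried one of these seeds without being a member, that of the miR-92 class.

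By name, the RefSeq annotation of Sscrofa11.1 places the hairpins in 3 groups of neighbours. The first holds MIR17, MIR18A, MIR19A, MIR20A, MIR19B-1 and MIR92A-1. The second holds MIR363-1, MIR92A-2, MIR19B-2, MIR20B-1, MIR18B and MIR106A. MIR92B stands alone. Mature ssc-miR-19b and ssc-miR-92a thus each have 2 annotated hairpins, 1 in each cluster, and their signals cannot be divided between the clusters.

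A signal of 100 was taken as the floor below which no ratio was formed. By this rule, 7 of the 12 members were measured, all at or above it (hereafter at the floor) on both arrays, and 5 were under the floor on both. The 7 measured members had signals of 743 or more, and the highest signal among the other 5 was 83.2, that of ssc-miR-18a in Landrace pigs. Over the whole array, 185 miRNAs reached the floor on at least 1 array and 169 on both. The measured members were all 3 of the miR-17 class, all 3 of the miR-92 class and ssc-miR-19b.

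Of the 7 measured members, 1, ssc-miR-19b, differed by 2-fold or more between the breeds, and it was higher in Bama minipigs. Among all 185 miRNAs that reached the floor on at least 1 array, 12.4% were 2-fold or more higher in Bama minipigs and 2.7% 2-fold or more lower. No member was 2-fold lower. A share of 1 in 7 is near the background of the array, so the count of members is not a result about the clusters as a group. Of the 7, 6 had a log2 ratio above 0, against 47.9% of the 169 miRNAs at the floor on both arrays, and both numbers moved with the scaling. After scaling to the 75th percentile of all probes, for example, 2 members and 31.6% of the miRNAs at the floor on both arrays lay above 0, and after loess 4 members and 50.9% did. The median log2 ratio of the 7 was 0.04, against -0.02 for the 169 miRNAs with no further scaling.

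In the miR-19 class, ssc-miR-19b gave a signal of 1881 on the Bama minipig array against 743 on the Landrace array, a 2.53-fold higher signal in Bama minipigs (log2 ratio 1.34). Its log2 ratio stood at place 10 from the top among the 169 miRNAs at the floor on both arrays. Among the 185 at the floor on at least 1 array it stood at place 16. By signal, ssc-miR-19b held rank 83 of 355 on the Bama minipig array but rank 115 on the Landrace array. Of the 32 other miRNAs whose mean signal lay within 1.5-fold of that of ssc-miR-19b, 3 (9.38%) were 2-fold or more higher in Bama minipigs, and 2 of these had a log2 ratio at least as high as that of ssc-miR-19b. The log2 ratio of ssc-miR-19b stayed between 1.15 and 1.42 under every scaling, offset and floor tried. Its sister ssc-miR-19a, which differs by 1 base, was under the floor on both arrays, at 37.4 and 3.20, and no ratio is given for it.

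In the miR-17 class, the members known best for acting on E2F1 and CDKN1A, the signals of the breeds lay close together. For ssc-miR-17-5p the Bama minipig array gave 1896 and the Landrace array 1846 (log2 ratio 0.04). For ssc-miR-106a they gave 1306 and 1274, respectively (log2 ratio 0.04). These 2 near-identical miRNAs, 1 from each cluster, had almost the same ratio. Whether their probes bound each other's RNA was not tested, so the 2 ratios may not be separate readings. The signal of ssc-miR-20, taken here as the product of MIR20A, was 1002 on the Bama minipig array against 790 on the Landrace array (log2 ratio 0.34). Because ssc-miR-20 differs from each of the others at 2 of 22 shared positions, its ratio may not be a separate reading either. All 3 were below the 2-fold limit. The sign of the small ratios of ssc-miR-17-5p and ssc-miR-106a turned with the scaling of the arrays, after quantile normalization, after median scaling and with either 75th percentile scaling, and for ssc-miR-17-5p also after loess. That of ssc-miR-20 stayed above 0, between 0.12 and 0.50.

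In the miR-92 class, none of the 3 measured members reached 2-fold. For ssc-miR-92a the Bama minipig array gave 7033 and the Landrace array 6911 (log2 ratio 0.03). For ssc-miR-92b-3p, from a hairpin outside both clusters, they gave 3043 and 2735, respectively (log2 ratio 0.15). The sign turned for ssc-miR-92a after loess, after median scaling and with either 75th percentile scaling, and for ssc-miR-92b-3p after quantile normalization and with the 75th percentile of all probes. The lower value of ssc-miR-363 was on the Bama minipig array, with 949 against 1128 on the Landrace array (log2 ratio -0.25). It was the only measured member with a lower signal in Bama minipigs, and its log2 ratio stayed below 0 under the alternatives, from -0.47 to -0.13. The seed mate ssc-miR-32 gave 0.128 and 1.66, far under the floor.

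The miR-18 class was under the floor on both arrays. On the Bama minipig and the Landrace array, ssc-miR-18a gave 44.3 and 83.2, and ssc-miR-18b gave 25.4 and 47.5. The opposite arms were also under the floor, with 51.4 and 31.8 for ssc-miR-17-3p and 10.3 and 20.5 for ssc-miR-92b-5p. For both hairpins the other arm, ssc-miR-17-5p or ssc-miR-92b-3p, was measured on both arrays. Values under the floor have no order, and neither a direction nor a ratio is drawn from them.

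Set side by side by cluster, the members did not share 1 ratio. Among those with a hairpin only in the first cluster, ssc-miR-17-5p and ssc-miR-20 (taken as the product of MIR20A) had log2 ratios of 0.04 and 0.34. Among those with a hairpin only in the second, ssc-miR-106a and ssc-miR-363 had 0.04 and -0.25. For scale, the lower and upper quartiles of the log2 ratio over the 169 miRNAs at the floor on both arrays were -0.27 and 0.34. The values of ssc-miR-17-5p, ssc-miR-20 and ssc-miR-106a may not be separate readings of the 2 clusters, because their sequences differ from each other at only 1 or 2 shared positions. Only 1 member was numbered 20, so MIR20B-1 of the second cluster had no member of its own. The 2 members with a hairpin in each cluster were unlike each other, with 1.34 for ssc-miR-19b and 0.03 for ssc-miR-92a. The log2 ratio of ssc-miR-19b exceeded that of ssc-miR-92a by 1.31, that of ssc-miR-17-5p by 1.30 and that of ssc-miR-106a by 1.30. It exceeded that of ssc-miR-92b-3p by 1.19, that of ssc-miR-20 by 0.998 and that of ssc-miR-363 by 1.59. Such differences between members are not changed when a whole array is multiplied by a factor. Over all alternatives they ran from 0.91, against ssc-miR-20 after loess, to 1.63, against ssc-miR-363 after quantile normalization. Without replicate pools their error is unknown.

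The summed signal of the 12 members was 17279 in Bama minipigs, or 2.48% of the summed signal of the array, and 15614 in Landrace pigs, or 2.32%. Most of the gap of the sums lay in ssc-miR-19b, whose signals differed by 1138. Probes bind their targets unequally well, so these shares are shares of signal and not of molecules.

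Among other families, in the miR-15/16 family, which also acts on the cell cycle, 5 of 6 members were measured and none reached 2-fold, with log2 ratios from -0.19 to 0.58 and a median of -0.06. In the let-7 family, all 7 were measured and 2 were 2-fold or more higher in Bama minipigs, with a median log2 ratio of 0.34. The 2 became 1 after quantile normalization, median scaling or either 75th percentile scaling, and the median stayed above 0, at 0.15 or more. Over the array with no further scaling, 12.4% of the 185 miRNAs at the floor on at least 1 array were 2-fold or more higher. Those 2-fold or more lower were 2.7%. After the scalings just named, the share higher was 10.8% to 11.3%. The median log2 ratio of the 169 miRNAs at the floor on both arrays was -0.02.

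The signals of miRNAs known from endocrine pituitary cells were also read (ssc-miR-7 and the added probes for miR-375, miR-141, miR-200a and miR-200c, with ssc-miR-429). The list was chosen with earlier results of these data known, so its signals are a description and no check of the tissue label. All 6 were at the floor on both arrays, with none past 2-fold and a summed signal of 98550 on the Bama minipig array against 105517 on the Landrace array. Blood cells also carry miR-17-92 miRNAs. Of 6 blood cell miRNAs, 2 were at the floor, ssc-miR-451 of red cells and ssc-miR-486, and the 4 leukocyte miRNAs lay below 2, with sums of 5497 and 6026 and none past 2-fold. Of 6 striated muscle miRNAs, 5 were at the floor on at least 1 array. Of these, 3 (ssc-miR-1, ssc-miR-133a-3p and ssc-miR-133b) were 2-fold or more higher in Bama minipigs. Each was counted against the floor because it was under 100 in Landrace pigs. Lower by 2-fold or more was 1, ssc-miR-206 (0 with an offset of 50). The 2 at the floor on both arrays were lower in Bama minipigs, ssc-miR-206 with 117 against 278 and ssc-miR-499-5p with 175 against 192. The sums over all 6 were 1528 and 660. Of 5 miRNAs of connective tissue and vessels, all were at the floor and 1 was 2-fold lower in Bama minipigs (2 after median or either 75th percentile scaling, 0 with an offset of 50), with sums of 15631 and 20129. Of 4 brain miRNAs, ssc-miR-128 was at the floor, with sums of 5468 and 5650. For comparison with all these counts, 12.4% of the 185 miRNAs at the floor on at least 1 array were 2-fold or more higher. Those 2-fold or more lower were 2.7%. The share lower was 4.3% to 4.84% after median or either 75th percentile scaling and 1.08% with an offset of 50. The summed muscle signal, like ssc-miR-19b, was higher in Bama minipigs, through the 3 muscle miRNAs under the floor in Landrace pigs. It was higher also after every scaling but loess, which left out the 4 muscle miRNAs under the floor on an array. Its part in the difference of ssc-miR-19b was not tested.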

How the data were processed

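Small RNAs of each pool were tailed, tagged, hybridized and stained with Cy5 on custom microfluidic chips. Background subtraction, LOWESS normalization and averaging of repeat spots were done by the authors. What they deposited is 1 linear signal intensity per probe and array, above 0 for each of the 355 probes. How values under the background were kept above 0 is not given in the sources used here. No background or spot data were used, and the study's calls of detection were not used, so a signal floor of 100 stood in for them.

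Log2 ratios were computed from the deposited signals with no further scaling. A miRNA under the floor on 1 array was set to the floor there. A difference counted at 2-fold or more, with no test. All members were named. The members, the lists and the limits were chosen with earlier results of these data known. Alternatives were median scaling, scaling to the 75th percentile of the probes at the floor on both arrays or of all probes, cyclic loess (3 iterations) and quantile normalization, both by limma 3.58.1 under R 4.3.3, an offset of 50, floors of 50, 200 and 500, no floor, and ranks. Sequences came from the study's probe list, which matched all 355 probes. The scalings were run on simulated data with equal numbers of planted changes up and down. On the real arrays more miRNAs were 2-fold higher than lower in Bama minipigs, so that run cannot show how well the scalings do here. Python 3.11.15, numpy 2.4.6 and pandas 2.3.3 were used. The number of arrays limits the precision.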

Additional observations from a re-analysis of the deposited data

How the results depend on the processing

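With 2-fold as the limit, the count of 1 member higher and 0 members lower in Bama minipigs was the same under the 5 scalings, the offset and floors of 50, 200 and 500. Under these alternatives, 10.7% to 11.9% of all miRNAs compared were 2-fold or more higher in Bama minipigs. The share 2-fold or more lower was 1.08% to 4.84%. Without a floor, 2 members were higher, the second being ssc-miR-19a, whose signals of 37.4 and 3.20 are both under 100. Of all 355 miRNAs, 19.4% were then 2-fold or more higher and 15.2% 2-fold or more lower. The small ratios of the other members depended on the scaling. The median log2 ratio of the members, 0.04, was -0.074 after median scaling, -0.081 after scaling to the 75th percentile of the probes at the floor on both arrays and -0.15 after scaling to the 75th percentile of all probes. Each of these scalings multiplies an array by 1 factor and so lowers every ratio between the arrays alike. The median over all miRNAs at the floor on both arrays moved by -0.10, -0.11 and -0.17, over a set that grew from 169 to 172, 172 and 174. The number of measured members with a log2 ratio above 0 fell from 6 to 3, 3 and 2 under them, while the share of all miRNAs above 0 fell from 47.9% to 36.0%, 36.0% and 31.6%. It was 3 after quantile normalization, with 35.1% of all miRNAs, and 3 by rank on each array. No paired analysis was possible because each breed had 1 pool, and for the same reason no replicate could be left out. An offset of 50 and the floors moved no measured member's log2 ratio by more than 0.1. At a floor of 50, 9 members reached it on at least 1 array instead of 7. The added members were ssc-miR-17-3p and ssc-miR-18a, each on 1 array only. With floors of 200 and 500 the number stayed at 7.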
